A study of Homo sapiens with 4 samples.

Results

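ZNF genes carry the symbol ZNF followed by a number and encode zinc finger proteins, most of them of the C2H2 type. A total of 62 of the 6145 genes in the authors' table of the comparison matched this symbol, out of 511 ZNF genes among the 19729 genes with a value. The table lists genes whose mean over all libraries is 8 or more, so the members were chosen by name and by level. The family was proposed with its higher values after APC silencing already in view, and its shift is therefore described without a test. HT-29, a human colorectal cancer line that is microsatellite stable and carries mutant BRAF and a truncating APC mutation, had been stably transduced with lentivirus so that doxycycline (DOX) switches on either an shRNA that targets APC (the APC shRNA condition) or one that silences nothing (NonS). Both conditions received 500 ng/ml DOX for 72 h, and there was a replicate I and a replicate II per condition, hence 4 libraries of transduced cells at 3 to 5 passages after transduction. In such bulk RNA, a change in every cell and a change in the share of cells with a high level cannot be told apart.

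C2H2 zinc fingers are short folds in which a pair of cysteines and a pair of histidines hold a zinc ion, and arrays of them read DNA sequence base by base. Many ZNF proteins also carry a KRAB box, which recruits TRIM28 and the histone methyltransferase SETDB1 to silence transposable elements and genes. Their genes lie in tandem clusters, above all on chromosome 19, and most are transcribed at low levels. Other ZNF proteins have no KRAB box and work as transcription regulators, in RNA processing, at the ribosome or at the spindle.

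The label was checked against translated GENCODE v29 transcripts, which were available for 61 of the 62 genes. A C2H2 finger (cysteine, 2 to 4 residues, cysteine, 12 residues, histidine, 3 to 5 residues, histidine or cysteine) was found in all but 3 of them, namely ZNF330, ZNF703 and the readthrough gene ZNF816-ZNF321P. The median was 6 fingers per protein and the highest number 20, in ZNF865. A simple pattern for the KRAB box matched 12 proteins and one for the SCAN dimerization domain matched 4, and diverged domains are missed by such patterns. Chromosome 19 held 21 of the 62 genes (33.9%), against 8.07% of all genes in the authors' table. Chromosome 7 held 7 of them.

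The 3 genes with the largest called rises that could be shown had these RefSeq promoter windows, each from 250 bases before to 50 bases after the transcript start in GRCh38.p14. They are shown because the genes moved together and because ZNF32 and ZNF74 share a stretch of sequence. Capitals mark a ZNF143-type motif, a form of the element bound by ZNF143 and THAP11 (in ZNF32, and the first one in ZNF74), and an NRF1 core (the second one in ZNF74, and in ZNF428), searched on both strands, and the motifs do not overlap each other in these windows. ZNF32 lies at chr10:43648832-43649131 on the minus strand, ZNF74 at chr22:20393901-20394200 on the plus strand and ZNF428 at chr19:43619580-43619879 on the minus strand.
ZNF32: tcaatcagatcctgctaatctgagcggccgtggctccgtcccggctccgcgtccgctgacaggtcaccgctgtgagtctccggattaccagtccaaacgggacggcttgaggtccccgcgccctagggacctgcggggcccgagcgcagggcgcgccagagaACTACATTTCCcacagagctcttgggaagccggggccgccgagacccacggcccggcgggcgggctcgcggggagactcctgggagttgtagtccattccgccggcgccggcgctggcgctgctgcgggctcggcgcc
ZNF74: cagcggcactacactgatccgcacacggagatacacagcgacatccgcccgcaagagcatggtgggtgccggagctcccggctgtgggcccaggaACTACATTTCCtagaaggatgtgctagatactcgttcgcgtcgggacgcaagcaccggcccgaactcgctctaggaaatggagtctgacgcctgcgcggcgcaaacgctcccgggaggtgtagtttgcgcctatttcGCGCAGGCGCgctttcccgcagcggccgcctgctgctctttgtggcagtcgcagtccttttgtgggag
ZNF428: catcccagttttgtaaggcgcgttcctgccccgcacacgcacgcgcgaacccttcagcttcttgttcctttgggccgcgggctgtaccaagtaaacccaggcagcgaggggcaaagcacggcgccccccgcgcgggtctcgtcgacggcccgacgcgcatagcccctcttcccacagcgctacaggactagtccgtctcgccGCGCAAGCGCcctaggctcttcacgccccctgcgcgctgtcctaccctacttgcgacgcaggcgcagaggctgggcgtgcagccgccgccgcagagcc

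The motifs were chosen after these windows and further motifs had been looked at. The ZNF143-type motif stood in the windows of ZNF32, ZNF74, ZNF146, ZNF317 and ZNF444, that is in 9.68% of the 62 windows found for 52 of the members, against 1.47% of the windows of all genes tested. The NRF1 core stood in 17.7% of the members' windows and in 11.3% of those of all genes tested, and the ETS core CCGGAAG in 37.1% and 20.3%. Of the TCF/LEF forms, CTTTGAT was in 0 of the members' windows (1.34% of those of all genes tested) and CTTTGAA in that of ZNF865 alone (2.27%). These letters are a description of the windows. Of the 5 genes with the ZNF143-type motif, ZNF32 and ZNF74 were called higher, ZNF444 and ZNF317 had differences of 0.66 and 0.23, and ZNF146 one of -0.58.

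The deposited values are whole numbers of unstated scale that do not behave as read counts. Over genes whose replicate values summed to between 10 and 39, the variance between replicates was 0.474 times the Poisson variance in NonS and 0.345 times in APC shRNA libraries. The values summed to between 398338 and 413595 per library, which is not a depth in reads, so no counting interval can be given. APC itself had a value of 3 in NonS replicate I and of 0 in the other 3 libraries, so the silencing could not be checked at this level. Of the epithelial markers, 7 of 9 were above 0 in every library, CDX1 and CDX2 being the exceptions. The 7 markers of other cell types (VIM, COL1A1, COL1A2, PTPRC, PECAM1, CD3E and ALB) were listed at 0 in all 4 libraries. Differences are given on the log2(value + 1) scale, APC shRNA minus NonS, which understates the change of low genes. Tests are limma with Benjamini-Hochberg adjustment over all 5376 genes with a mean of at least 10, and a gene is called at an adjusted p under 0.05. The series describes the replicates as biological duplicates from a repeat of the experiment, and p-values measure the spread between these samples. For a single gene, 2 against 2 libraries cannot give an exact two-sided permutation p under 0.33.

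The ZNF genes as a group were listed higher after APC silencing. The summed value of all 62 genes was 1005 (replicate I) and 986 (replicate II) under NonS and 1272 and 1258 with APC silenced. As a share of all values this was 0.252% and 0.240% in NonS and 0.308% and 0.305% in APC shRNA libraries, so the conditions did not overlap. Without ZNF90, the gene with the highest value, the sums were 862 and 858 against 1105 and 1116. All these sums include 7 genes with a NonS mean under 8, namely ZNF358, ZNF74, ZNF579, ZNF513, ZNF263, ZNF496 and ZNF317. Such genes reached the table only through their higher APC shRNA values.

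Of the 62 genes, 50 had a mean of at least 10 and were tested. Their median difference was 0.28, with quartiles of 0.08 and 0.49, beside a median of 0.03 over all 5376 genes tested. The difference was above 0 in 40 of the 50, at 0 in ZNF511 and below 0 in 9, where 51.8% of all genes tested were above 0. In 30 of the 50 genes the lower APC shRNA value exceeded the higher NonS value, against 33.0% of all genes tested, and the reverse held in 2, against 27.5%. Over all 62 genes these numbers were 36 and 2, beside 32.3% and 27.1% of the 6145 genes of the table, and 48 of the 62 were above 0, beside 51.2%. The 62 include the 7 genes that reached the table only through their APC shRNA values, and the rise of these 7 is no support for the shift. Likewise, 10 of the 50 had a NonS mean under 10. These passed the filter only through their APC shRNA values, and their rise is no support either. With at least 10 in every library, 37 genes remained, with a median of 0.23 beside 0.03 over all genes. Of these 37, 20 were apart in the upward direction and 1 in the downward direction, and the shares of all genes were not computed. Over the 50 genes the median difference within replicate I was 0.33 and within replicate II 0.24, beside 0.00 and 0.02 over all genes tested. Within replicate I, 41 of the 50 were higher, beside 2578 of all 5376 genes. Within replicate II it was 40 of the 50, beside 2728. Between replicates of the same condition the median moved by 0.10 in NonS and by 0.06 in APC shRNA libraries, replicate II minus replicate I.

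**Figure D1:**
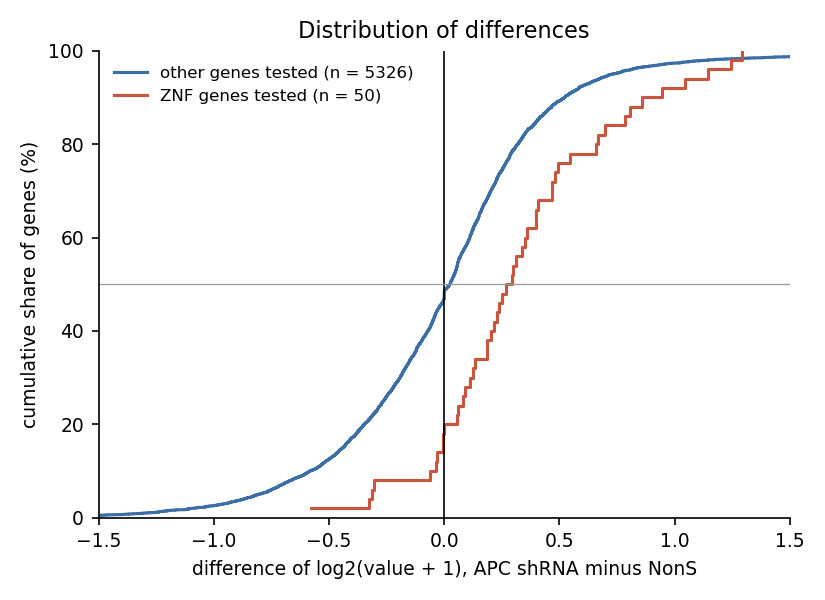
Cumulative share of genes (y axis, %) by the difference of log2(value + 1) between APC shRNA and NonS (x axis), for the 50 ZNF genes tested and the 5326 other genes tested. The line of the ZNF genes lies to the right, with a median of 0.28 against 0.02, and 95 other genes fall outside the drawn range of -1.5 to 1.5.

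Individual genes left this shift upwards. limma called 8 of the 50 genes higher, where 4.33% of all genes tested were called higher, and 0 lower, where 3.7% of all genes tested were called lower. A total of 25 of the 50 had an unadjusted p under 0.05, against 35.6% of all genes tested. The 8 were ZNF32, ZNF703, ZNF74, ZNF428, ZNF3, ZNF579, ZNF629 and ZNF710. Of these, ZNF32, ZNF74 and ZNF579 had a NonS mean under 10, as did 10 of the 50 genes, and so reached the filter only through their higher APC shRNA values, which makes their calls no independent support. With at least 10 in every library these 3 were not tested, and 5 of 37 genes were called higher (2.97% of all genes). With any single library left out 0 genes were called in limma, and the smallest adjusted p of a ZNF gene was then between 0.148 and 0.208, although the differences of the 8 genes stayed between 0.65 and 1.37. Unadjusted p-values under 0.05 were then found for 15 to 23 of the 50.

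**Figure D2:**
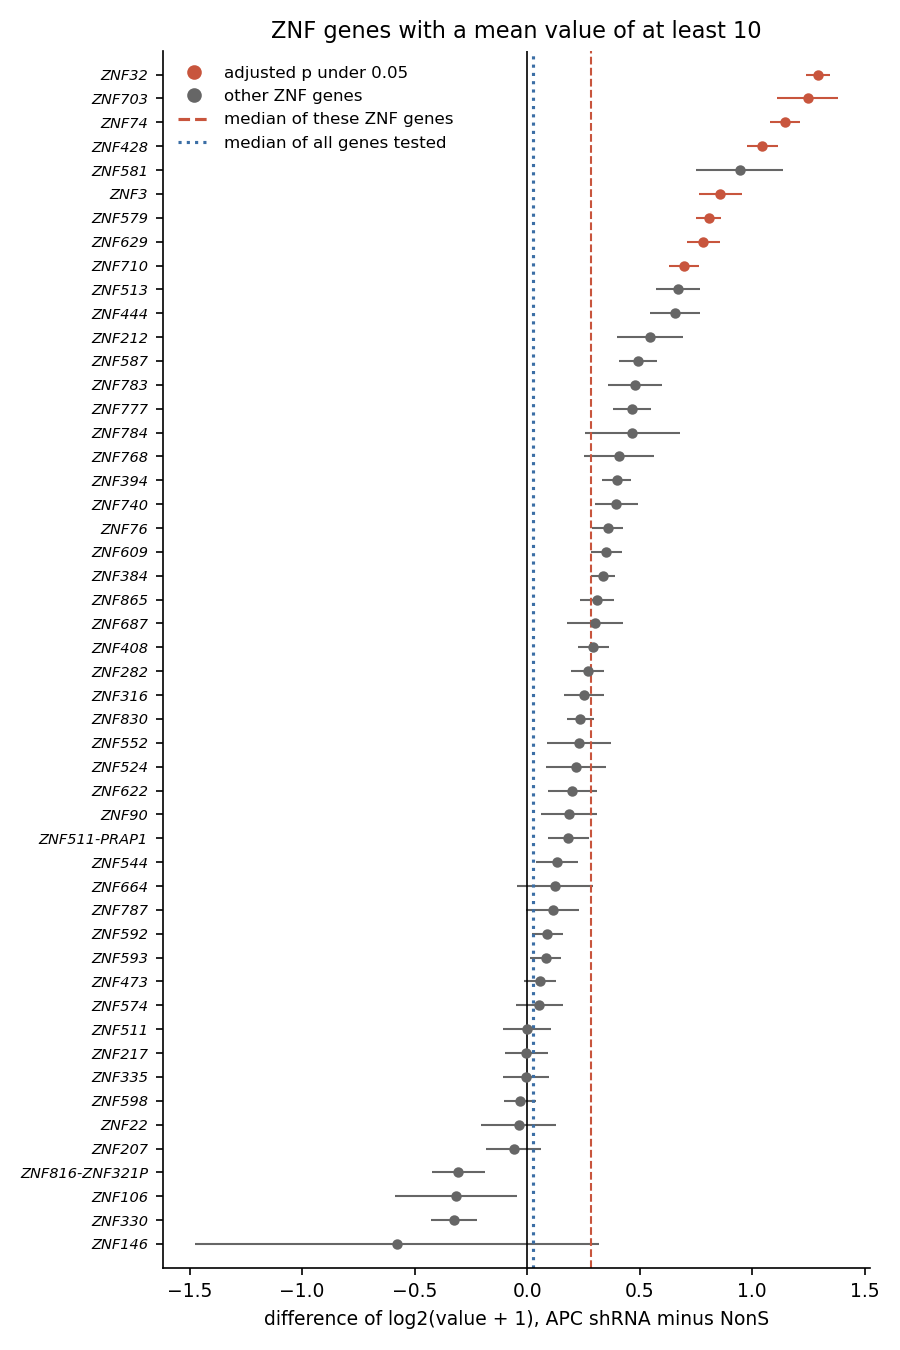
Difference of log2(value + 1), APC shRNA minus NonS (x axis), of the 50 ZNF genes tested (y axis), with standard errors from limma. The 8 genes with an adjusted p under 0.05 lie between 0.70 and 1.29. The dashed line is the median of these ZNF genes (0.28) and the dotted line that of all genes tested (0.03).

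ZNF32, a compact C2H2 protein with 7 fingers on chromosome 10, had the largest called rise. It was listed at 9 in each NonS library and, with APC silenced, at 24 and 23. The difference was 1.29 (standard error 0.05, adjusted p = 0.0423 in limma), a ratio of means of 2.61, and the conditions did not overlap. ZNF74, a KRAB zinc finger protein with 12 fingers encoded on chromosome 22, was listed at 6 in each NonS library and, with APC silenced, at 15 and 14. Its difference was 1.15 (standard error 0.07, adjusted p = 0.0423 in limma), from values among the lowest of the genes tested and, as for ZNF32, with a NonS level under the filter. Neither gene varied between the NonS replicates. ZNF32 shares 318 exonic bp with ZNF32-AS2 and 236 bp with ZNF32-AS1 on the opposite strand. The libraries were stranded, but the strand setting of the counting is not given in the sources used here, so reads of such pairs may have been mixed.

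ZNF703, a transcriptional corepressor of the NLZ family known as an amplified oncogene in luminal breast cancer, was the called gene with the highest values. It was listed at 25 and 29 under NonS and, with APC silenced, at 60 and 71, that is 27.0 ± 2.83 and 65.5 ± 7.78 (SD, n = 2 each). The difference of 1.25 (standard error 0.14) had an adjusted p of 0.0463 in limma. ZNF428, a small protein with a single finger whose function is little known, rose from 22 and 24 to 48 and 49. Its difference was 1.05 (standard error 0.07, adjusted p = 0.0423 in limma), and it shares 498 exonic bp with SRRM5 on the opposite strand. In both genes every APC shRNA value was at least 2 times every NonS value.

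ZNF3, a KRAB zinc finger protein with 8 fingers on chromosome 7, was listed at 12 and 13 under NonS and, with APC silenced, at 22 and 25. The difference was 0.86 (adjusted p = 0.0465 in limma), and 880 of its exonic bp overlap ZSCAN21 on the opposite strand. ZNF579 was listed at 7 in each NonS library and at 13 in each APC shRNA library, a difference of 0.81 (adjusted p = 0.0423 in limma) with no spread between replicates and a NonS level under the filter. ZNF629, with 19 fingers, was listed at 11 and 12 under NonS and, with APC silenced, at 20 and 21. Its difference was 0.78 (adjusted p = 0.0447 in limma). ZNF710 rose from 13 and 14 to 22 and 23, a difference of 0.70 (adjusted p = 0.0452 in limma), and shares 793 exonic bp with ZNF710-AS1 on the opposite strand. In these 4 genes the conditions were apart by more than the spread between replicates, at values that rounding to whole numbers makes coarse. When every gene of the table was tested, ZNF703 and ZNF3 no longer passed in limma (adjusted p = 0.0508 each). That fit called 7 of the 62 genes higher, ZNF358 among them (2.59% of all genes) and 0 lower (2.28%), with 30 at an unadjusted p under 0.05 (34.7%). With the replicate number as a term, 15 of the 50 were called higher (9.73%), and with GC content corrected as well 26 (23.0%).

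**Figure D3:**
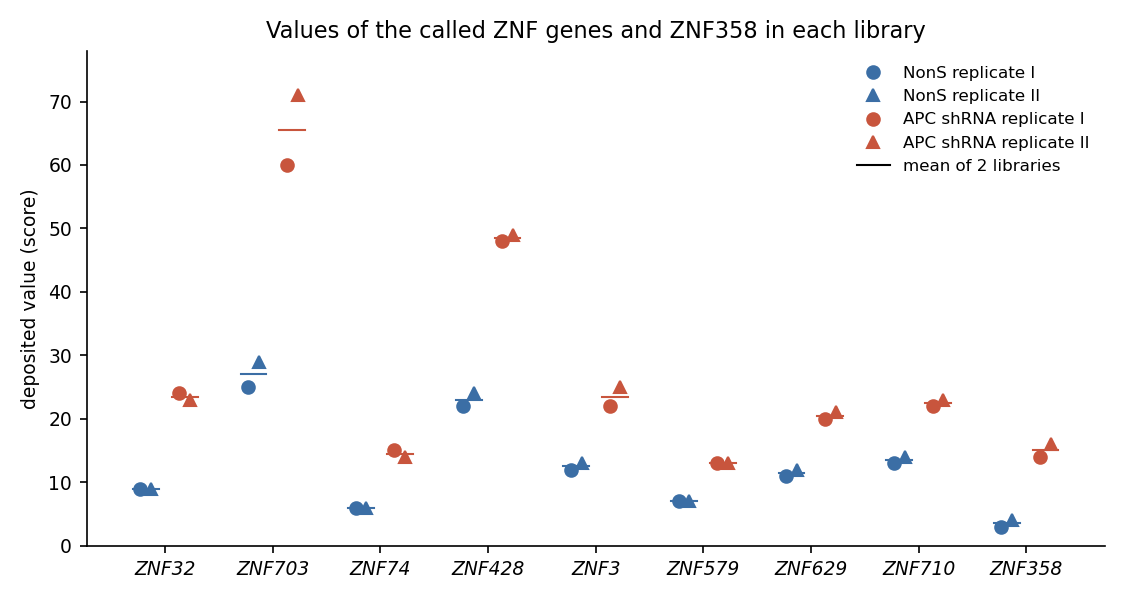
Deposited value (y axis, score) in each of the 4 libraries for the 8 called ZNF genes and ZNF358. Circles are replicate I, triangles replicate II and lines the means of 2 libraries. In each of the 9 genes both APC shRNA values lie above both NonS values.

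The largest rise of the 62 genes was that of ZNF358, which was named after its values were seen. It was listed at 3 and 4 under NonS and, with APC silenced, at 14 and 16, 3.5 ± 0.707 and 15.0 ± 1.41 (SD, n = 2 each), a ratio of means of 4.29. With a mean of 9.25 it stayed under the filter. Its difference was 1.84, and 418 of its exonic bp overlap AC008878.1 on the same strand. ZNF358 is in the table only through its APC shRNA values. Its call when every gene of the table was tested (adjusted p = 0.0484 in limma) is therefore no independent support. ZNF581 had the largest rise without a call, from 22 and 30 under NonS to 47 and 54 with APC silenced. Its difference of 0.94 (standard error 0.19, adjusted p = 0.0805 in limma) came with a wider spread between the NonS replicates, and it shares 407 exonic bp with its neighbour ZNF580. It passed with each of the 3 scalings (adjusted p between 0.0381 and 0.0431 in limma) and after the GC content correction (adjusted p = 0.0267 in limma). In all, 11 of the 50 genes, ZNF581 among them, had limma adjusted p-values from 0.05 to 0.10, beside 899 of all 5376 genes tested.

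No ZNF gene was called lower without a replicate term. ZNF146, which consists almost wholly of its 10 fingers, was listed at 57 and 16 under NonS and, with APC silenced, at 33 and 12. The difference of -0.58 (standard error 0.90, adjusted p = 0.666 in limma) is smaller than the gap between the replicates, which was -1.77 in NonS and -1.39 in APC shRNA libraries (replicate II minus replicate I). ZNF330, a nucleolar protein, was listed at 16 and 17 under NonS and, with APC silenced, at 14 and 12, a difference of -0.33 (adjusted p = 0.133 in limma). ZNF816-ZNF321P was listed at 13 and 11 against 9 and 10, a difference of -0.31 (adjusted p = 0.185 in limma). ZNF330 and ZNF816-ZNF321P are the 2 genes apart in the downward direction, and with GC content corrected their differences were -0.14 and -0.13. ZNF106, an RNA-binding protein, was listed at 14 and 12 under NonS and, with APC silenced, at 13 and 8, and these overlapped.

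The 2 genes with the highest means, ZNF90 and ZNF664, were not called, except for ZNF90 with GC content corrected and a replicate term. ZNF90, a KRAB zinc finger protein of the chromosome 19 clusters, was listed at 143 and 128 under NonS and, with APC silenced, at 167 and 142. These overlapped, and the difference was 0.19 (adjusted p = 0.358 in limma). With GC content corrected it was 0.42 (adjusted p = 0.0632 in limma), and with the replicate number as a further term it was called (adjusted p = 0.0197 in limma). The fit with both called 23.0% of all genes higher. ZNF664 was listed at 56 and 45 against 60 and 50, a difference of 0.12 (adjusted p = 0.626 in limma). Whether the score is already divided by gene length is not stated, so the order of levels between genes may depend on length. Multiplied by the length of the longest transcript in kb, the values of each library summed to between 980841 and 984873. Only these 2 genes had a mean of at least 50, and 47 of the 62 had a mean under 20. In 25 of the 62 genes at least 1 library was listed under 10.

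Neighbouring genes were compared along the chromosomes, joining members with less than 500 kb between them. On chromosome 7, from 149195485 to 149461123 (GRCh38), ZNF282, ZNF212, ZNF783 and ZNF777 followed each other. Their differences were 0.27, 0.54, 0.48 and 0.47, the conditions did not overlap in any of the 4, and none was called (adjusted p between 0.0697 and 0.112 in limma). With the replicate number as a term, ZNF212 (adjusted p = 0.0468) and ZNF777 (adjusted p = 0.0474) were called by limma, and with GC content corrected as well ZNF783 too (adjusted p = 0.0262). These fits called 9.73% and 23.0% of all genes higher. ZNF212 was listed at 10 and 12 under NonS and, with APC silenced, at 15 and 18. All 7 members on chromosome 7 were apart in the upward direction, beside 33.0% of all genes tested, with a median of 0.47. Among the 7, ZNF777 and ZNF316 had a NonS mean under 10 and passed the filter only through their APC shRNA values. Their rise, and the call of ZNF777 with a replicate term, are therefore no independent support.

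The longest run held 8 genes on chromosome 19, from 55576770 to 56160893. In order along the chromosome they were ZNF579, ZNF524, ZNF865, ZNF784, ZNF580, ZNF581, ZNF787 and ZNF444. Differences lay between 0.11 for ZNF787 and 0.94 for ZNF581. In the upward direction 6 of the 8 were apart, beside 32.3% of all genes of the table, with ZNF524 and ZNF787 as the exceptions. Among the 6, ZNF579 reached the table only through its APC shRNA values. ZNF865 and ZNF784 passed the filter for testing only through theirs, so the rise of these genes is no independent support. ZNF444, a SCAN protein, was listed at 15 and 18 under NonS and, with APC silenced, at 27 and 26 (difference 0.66, adjusted p = 0.0642 in limma). Another run of 3 genes, also on chromosome 19, held ZNF552 and ZNF544, which overlapped between conditions, and ZNF587, which was listed at 18 and 19 under NonS and, with APC silenced, at 25 and 28. The 16 tested members on chromosome 19 had a median of 0.22 and the 34 on other chromosomes one of 0.30, beside a median of 0.13 over all 449 tested genes of chromosome 19.

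By protein class, the 11 tested members with the KRAB pattern had a median difference of 0.27 and 2 calls, ZNF74 and ZNF3. The 38 without it had a median of 0.30 and 6 calls, where 4.33% of all genes tested were called higher. The 4 members with the SCAN pattern, ZNF263, ZNF394, ZNF444 and ZNF496, lay between 0.40 and 0.66, and none was called. All were apart in the upward direction, beside 32.3% of all genes of the table. However, 2 of them, ZNF263 and ZNF496, had a mean under 10 and a NonS mean under 8. These reached the table only through their APC shRNA values. Members with 8 or more fingers had a median of 0.30 (n = 23) and those with fewer one of 0.25 (n = 26). Across the 49 members with a finger count, the difference was hardly related to it (Spearman correlation 0.11, a description across genes of the same 4 libraries).

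By known role, the genes listed for RNA, the ribosome, splicing or the spindle lay on both sides of 0, from -0.33 to 1.05. Of the 14 listed, 10 were members and 9 were tested, with a median of 0.00. Of these 9, 1 was called higher (4.33% of all genes tested) and 0 lower (3.7%). The called gene was ZNF428, whose place in this list is uncertain. ZNF598, the ubiquitin ligase that marks collided ribosomes, was listed at 23 and 24 under NonS and, with APC silenced, at 24 and 22. ZNF593 and ZNF622, factors of large ribosomal subunit maturation, had differences of 0.08 and 0.20, and ZNF207, a spindle and kinetochore protein, one of -0.06. ZNF830, a splicing-associated protein, was listed at 13 in each NonS library and, with APC silenced, at 16 and 15, a difference of 0.24 (adjusted p = 0.103 in limma). With GC content corrected and the replicate number as a term, ZNF207 (0.25, adjusted p = 0.0468 in limma) and ZNF830 (0.39, adjusted p = 0.0253 in limma) were called higher. That fit called 23.0% of all genes higher.

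Of 25 listed transcription regulators without KRAB, 9 were members and 8 were tested, with a median of 0.20. Among these 8, 1 was called higher, ZNF703 (4.33% of all genes tested), and 0 lower (3.7%). ZNF217, an oncogenic corepressor partner, was listed at 13 in each NonS library and, with APC silenced, at 14 and 12. ZNF384, known from fusions in acute lymphoblastic leukemia, was listed at 16 in each NonS library and, with APC silenced, at 21 and 20, a difference of 0.34 (adjusted p = 0.0613 in limma). ZNF76, the paralog of ZNF143, was listed at 11 and 12 against 15 in both, a difference of 0.36 (adjusted p = 0.0717 in limma). The 43 members in neither role list, tested or not, had a median of 0.40. In the upward direction 29 of them were apart, beside 32.3% of all genes of the table. The 7 genes that reached the table only through their APC shRNA values are all among the 43. Over tested and untested members, the medians were -0.02 for the RNA list (n = 10) and 0.09 for the transcription regulators (n = 9).

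The partners of KRAB proteins were read from a list of 23 genes, of which 16 were tested. None was called higher (4.33% of all genes tested), and UHRF1, a reader of hemimethylated DNA, was called lower (3.7%). It was listed at 22 and 21 under NonS and, with APC silenced, at 13 and 12, a difference of -0.74 (adjusted p = 0.0452 in limma). TRIM28 itself was listed at 271 and 257 under NonS and, with APC silenced, at 305 and 283, a difference of 0.15 (adjusted p = 0.239 in limma). SETDB1 was listed at 9 and 10 against 14 and 15, a difference of 0.56 (adjusted p = 0.0582 in limma). The maintenance DNA methyltransferase DNMT1 was listed at 31 and 27 against 19 and 16, a difference of -0.70 (adjusted p = 0.0705 in limma). The list as a whole had a median of 0.11.

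Other zinc finger families, taken by the symbols ZBTB, ZSCAN, ZKSCAN, ZFP and KLF, lay on both sides of 0. Of their 17 tested genes 8 lay above 0 and 9 below, with a median of -0.18. Of these, 0 were called higher (4.33% of all genes tested) and 1 was called lower (3.7%). The call was KLF5, an intestinal crypt transcription factor, which fell from 100 and 88 under NonS to 49 and 52 with APC silenced (difference -0.88, adjusted p = 0.0461 in limma). ZBTB22, at 7 and 9 against 14 and 19, had the highest difference of these families at 0.95 (adjusted p = 0.0899 in limma). The 30 tested genes that carry 3 or more fingers and are not ZNF genes, KLF5 among them, had a median of 0.08. In this set, which overlaps the families above, 3 were called higher (4.33% of all genes tested) and 1, again KLF5, lower (3.7%). The number apart in the upward direction was 11, beside 33.0% of all genes tested. ZFP36, ZFP36L1 and ZFP36L2, which the symbol rule took in, are RNA-binding proteins with CCCH rather than C2H2 fingers. The difference between the ZNF genes and these sets was not tested.

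GC content moved with the result. The tested members had a median transcript GC content of 56.3%, against 51.9% for all genes tested, and differences rose with GC content across all genes (Spearman correlation 0.24) and across the 50 members (0.37), both descriptions across genes of the same libraries. The genes tested were split into 4 equal GC bands. In the lowest band, up to 45.0%, the 10 members had a median of -0.05 and the other genes one of -0.17. In the next 2 bands the members' medians were 0.18 (n = 8) and 0.40 (n = 11), against 0.03 and 0.10 for the other genes. In the band above 58.3% the 21 members had a median of 0.30 and the other genes one of 0.10. With a GC trend removed from each library, the members' median was 0.25, that of all genes 0.01, and 12 members were called higher (8.17% of all genes), all 8 named above among them.

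**Figure D4:**
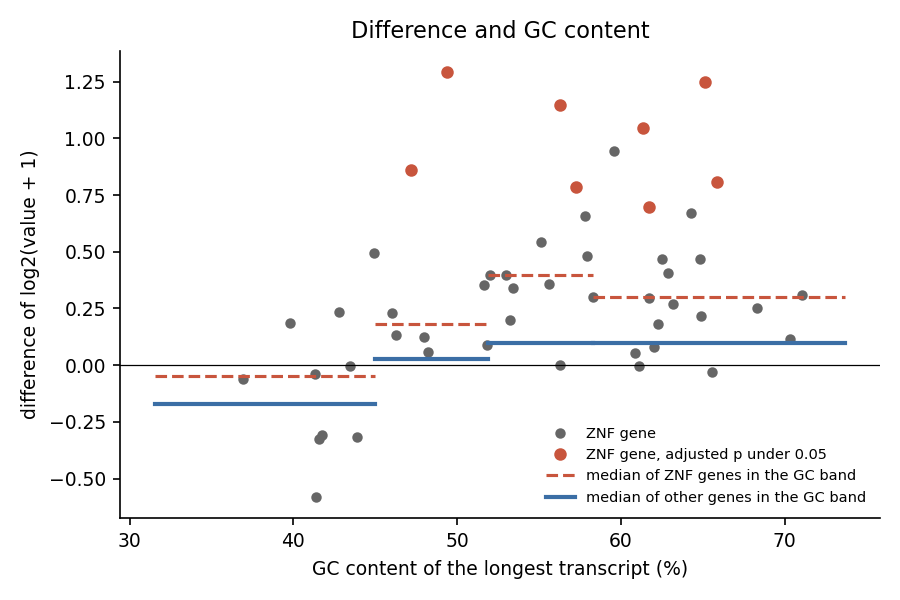
Difference of log2(value + 1), APC shRNA minus NonS (y axis), against the GC content of the longest transcript (x axis, %) for the 50 ZNF genes tested. Dashed and solid lines are the medians of the ZNF genes and of the other genes in each GC band, and the ZNF median is the higher one in all 4 bands.

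GC content also moved with the replicate number. Across the 50 members the difference between replicates II and I rose with GC content (Spearman correlation 0.48), and in the lowest band members fell by a median of 0.15 from replicate I to II. ZNF146 (41.4% GC) and ZNF106 (43.9%) were such genes. ZNF131 (42.5%), under the filter, was listed at 12 and 8 under NonS and, with APC silenced, at 10 and 6, so its replicates differed more than its conditions. The part of GC content in single genes was not tested.

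The table ended within the family. The lowest members were ZNF706 with a mean of 8, listed at 9 and 8 under NonS and, with APC silenced, at 7 and 8, then ZNF317 with 8.25 and ZNF395 and ZNF692 with 8.75. The highest ZNF gene outside it was ZNF205 with a mean of 7.75, listed at 6 in each NonS library and, with APC silenced, at 10 and 9. Outside the table, 71 ZNF genes had a mean from 4 to under 8. Of these, 34 were apart in the upward and 5 in the downward direction, beside 25.7% and 18.1% of all 2276 genes of that level, and their median was 0.22 beside 0.00. Of the rest, 120 were listed at 0 in every library, 44 had a mean under 1 and 214 one from 1 to under 4, too low to read single differences. All 449 ZNF genes outside the table summed to 879 and 725 in NonS and to 931 and 815 in APC shRNA libraries, and these sums overlapped between the conditions.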

How the data were processed

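RNA of 2 NonS and 2 APC shRNA libraries was sequenced as 50 bp single reads from a stranded polyA kit. According to the methods, the authors filtered and trimmed reads, aligned them with TopHat2 to human assembly 38 and counted genes with htseq-count on GENCODE v29, whereas the submitters' processing notes name hg19, bcl2fastq 2.19.0.316 and DESeq2 1.4.1. The deposited values are scores, whole numbers per gene and library, and the step that scaled and rounded them is not given in the sources used here. The authors' table supplied gene symbols and a mean score over the libraries (1.001 to 1.003 times the mean computed here), and its fold changes and p-values were not used.

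Values were tested as log2(value + 1) with limma 3.58.1 in R 4.3.3 (variance trend, Benjamini-Hochberg adjustment, mean of at least 10), because they do not vary as counts do. The script was tested on simulated data. The members, lists, filter and tests were chosen with earlier results of these data known. Named are all called members, the 5 largest rises and falls, the 5 highest means, the members at the edge of the table and examples of the role lists, and genes named beyond these were chosen after their values were seen. Domain classes were read by pattern from translated GENCODE v29 transcripts in place of RefSeq proteins, and promoter windows are from RefSeq (GRCh38.p14). Alternatives were other scalings, filters, pseudocounts and moderation, corrections for GC content and length, a replicate term and leaving out each library. Tables were handled in Python 3.11.15.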

Additional observations from a re-analysis of the deposited data

How the results depend on the processing

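The median of the ZNF genes stayed above that of all genes under every alternative run, at 0.23 with at least 10 in every library (37 genes), 0.22 with a pseudocount of 5 and 0.24 to 0.34 with a library left out. Calls moved more. The number called higher was 5 with at least 10 in every library, 0 at the study's thresholds (adjusted p under 0.01 and more than 4-fold) and 0 to 0 with a library left out (0 to 0 for lower), where the arm with 1 library is assumed to vary like the other. It was 12, 11 and 12 with other scalings (6.94%, 6.38% and 6.25% of all genes), 7 for every gene of the table (2.59%, 6 of the 8 among them), 10 for a total of at least 1 (7.44%, 7 of the 8), 10 with robust moderation (6.85%), 12 with GC content (8.17%) and 11 with transcript length corrected (7.36%), against 8 (4.33%). Genes with the conditions apart numbered 35 to 36 higher and 2 to 7 lower with a library left out, and 1 lower with at least 10 in every library. With a library left out, 1 library stands against 2, and genes come apart more readily than with all 4. The shares of all genes were not computed for these settings, so the larger counts do not show a firmer separation.

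The labels do not say that a replicate number marks a shared run. Deviations of same-numbered libraries correlated at r = 0.724 over 5376 genes, and a replicate block gave 15 called higher (9.73% of all genes). The replicate block with GC correction gave 26 higher (23.0% of all genes) and 1 lower (ZNF146, -0.39, adjusted p = 0.0232 in limma). In that fit 1293 of all 5364 genes were called lower. ZNF207 changed sign to 0.25 with GC content corrected, with or without the block. With a library left out, sign changes were seen in ZNF207 (-0.19 to 0.066), ZNF146 (-1.46 to 0.31), ZNF664 (-0.031 to 0.28) and ZNF106 (-0.63 to 0.0037). Across the named genes and alternatives, 248 values kept sign and side of the threshold, 35 lost the call, 10 gained one and 9 changed sign. The depth in reads is unknown, and rounding limits genes listed under 10. Count models were left out, since they need counts.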
